A study of Drosophila melanogaster with 6 samples.

Results

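Isoleucine, methionine and initiator methionine tRNAs read the AUN box of the genetic code, which holds the Ile codons AUU, AUC and AUA and the Met codon AUG. They were selected by name, as every nuclear isodecoder labelled Ile, Met or iMet, where an isodecoder is a set of tRNA genes with the same mature sequence. This gave 6 isodecoders of the 84 nuclear isodecoders and the 106 tRNAs listed in all. They are Ile-AAU-1-X, Ile-UAU-1-X, Met-CAU-1-X, Met-CAU-2-1, iMet-CAU-1-X and iMet-CAU-2-1, in which X stands for several genes.

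The AUN box is divided unevenly between 2 amino acids. Ile-AAU carries inosine, a deaminated adenosine, at the wobble position of its anticodon and reads AUU and AUC. Ile-UAU reads AUA and has to be kept from reading AUG. Both methionine tRNAs have the anticodon CAU, but they do different work. The initiator is brought to the ribosomal P site by eIF2 to start each protein, and the elongator is delivered by eEF1A to internal AUG codons.

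Whole brains of L3 larvae were compared in 6 samples, 3 per group, by hydro-tRNAseq, which sequences tRNA after partial alkaline hydrolysis. The neuron-biased samples are wild-type Oregon R brains, which are mostly neurons but also hold neuroblasts and glia. The neuroblast-biased samples carry insc-Gal4>UAS-aPKC_caax, in which the neuroblast driver insc-Gal4 expresses a membrane-tethered aPKC and neuroblasts are produced in excess. The sample records name growth at 25 °C, and the paper's methods a range of temperatures with 25 °C as its upper end. The paper names different larval ages in its methods and its results, so no exact age is given here. In bulk brains, a change in the share of a cell type and a change in tRNA per cell cannot be told apart, and the table lists no mRNA marker with which to check the cell types.

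The deposited table gives 1 value per tRNA and group, the authors' mean TMM, a normalized read count. It gives no value per sample and no library depth, so no spread between the 3 samples could be set beside the values below and no test was run on them. The authors' own test columns were not used, and every difference below is a difference between 2 means. Over the 84 nuclear isodecoders, the median log2 fold change of neuroblast over neuron was −0.27, and 27 had a higher mean in neuroblasts. Relative to this median every log2 fold change is higher by 0.27, and this value is given beside the changes of the AUN readers.

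The AUN readers took a larger part of the nuclear total in neuroblasts than in neurons. Their summed mean TMM made up 8.38% of the nuclear total in neuroblasts and 6.24% in neurons. The sum itself was 1127129 in neuroblasts against 1032806 in neurons (log2 fold change 0.13). Most of this net difference came from Ile-AAU-1-X, which was higher by 89232. The nuclear total was lower in neuroblasts, at 13449691 against 16544453 (log2 fold change −0.30). The lower total thus contributed more to the difference in share than the higher sum of the readers. Summed by amino acid, Ser, Phe and Asn tRNAs also took a larger part in neuroblasts, and Gly and Tyr tRNAs a smaller one. The mean was higher in neuroblasts for 4 of the 6, and 5 of the 6 lay above the nuclear median change. For Met-CAU-2-1, the lowest of these 5, the margin was 3.0e-04 on the log2 scale, so its place relative to the median is not resolved. The median log2 fold change of the 6 was 0.03 as deposited and 0.30 relative to the nuclear median.

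Few of these changes were large. Taking a log2 fold change of 0.5 as the size to note, none of the 6 was higher by that much, against 8.33% of all nuclear isodecoders. One of the 6, iMet-CAU-2-1, was lower by that much, against 33.3% of all. With the nuclear median set to 0, the member past this size was a different one. Ile-AAU-1-X was then higher by at least 0.5, as were 20.2% of all nuclear isodecoders, and none of the 6 was lower, against 14.3%. With so few members these shares are a description, and nothing particular to the AUN readers is drawn from them.

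**Figure D1:**
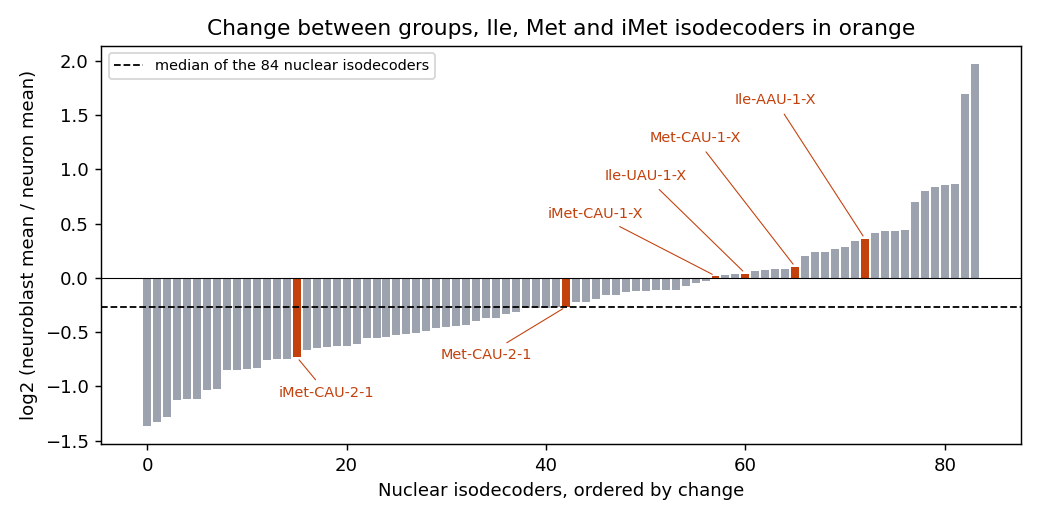
Log2 ratio of the neuroblast mean to the neuron mean for each of the 84 nuclear isodecoders, ordered from lowest to highest, with the 6 AUN readers in orange and the nuclear median of −0.27 as a dashed line. The readers run from iMet-CAU-2-1 at −0.73 to Ile-AAU-1-X at 0.36, and 4 of them lie above 0 as deposited.

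Ile-AAU-1-X, the reader of AUU and AUC, was the most abundant of the 6 in neuroblasts. The neuroblast mean of 405139 TMM was 1.28 times the neuron mean of 315907. It ranked 10 among the 84 nuclear isodecoders in neuroblasts and 16 in neurons. The log2 fold change of 0.36 was the 12th highest of the 84, and it was 0.63 relative to the nuclear median. Its share of the nuclear total was 3.01% in neuroblasts and 1.91% in neurons.

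Ile-UAU-1-X, the reader of AUA, had nearly the same mean in both groups. The neuroblast mean was 129474 TMM and the neuron mean 125896, which gave a log2 ratio of 0.04, or 0.31 relative to the nuclear median. It ranked 32 in neuroblasts and 38 in neurons.

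The 2 Ile anticodons were not in the same proportion in both groups. Ile-AAU was 3.13 times as abundant as Ile-UAU in neuroblasts and 2.51 times in neurons, a log2 change of the ratio of 0.32. This ratio is taken within each group, so the scaling of the groups does not affect it. Ile-AAU made up 75.8% of the summed Ile TMM in neuroblasts and 71.5% in neurons. Of the difference of 92809 in the summed Ile TMM, 89232 came from Ile-AAU and 3577 from Ile-UAU. The summed Ile pool had a log2 fold change of 0.28, which was the 3rd highest of 22 pools, with initiator Met and selenocysteine as pools of their own. Ile moved from place 16 by abundance in neurons to place 12 in neuroblasts.

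The codon weights of the tRNA adaptation index restate this balance from the side of the codon. They were calculated from the mean TMM with the same wobble penalties in both groups, 0.28 for inosine paired with C and a penalty close to 1 for inosine paired with A, and divided by the largest weight of the amino acid. AUU had a weight of 1 and AUC one of 0.72 in both groups, because Ile-AAU sets both and its level cancels. AUA had a weight of 0.320 in neuroblasts and 0.399 in neurons, a difference of −0.079. The lower relative weight of AUA in neuroblasts was thus reached with a mean of Ile-UAU that was no lower there.

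Met-CAU-1-X, the main elongator, was second in abundance among the AUN readers in neuroblasts and first in neurons. It was measured at 367498 TMM in neuroblasts against 342648 in neurons (log2 fold change 0.10, or 0.37 relative to the nuclear median). It ranked 11 of the 84 in neuroblasts and 13 in neurons. Met-CAU-2-1, the minor elongator, was measured at 70819 against 85206 (log2 fold change −0.27), which equals the nuclear median at this rounding. The difference between the groups thus ran in opposite directions for the 2 elongator isodecoders as deposited.

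Initiator Met also had a main and a minor isodecoder, each at a lower level than its elongator counterpart. iMet-CAU-1-X, the main initiator, was at 138025 TMM in neuroblasts against 136322 in neurons (log2 fold change 0.02, or 0.29 relative to the nuclear median). iMet-CAU-2-1, the minor initiator, was at 16175 against 26827 (log2 fold change −0.73), and it ranked 58 of the 84 in both groups. Relative to the nuclear median its change was −0.46. It was the least abundant of the 6 and had the lowest change among them.

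Within both CAU groups the minor isodecoder held a smaller share in neuroblasts. iMet-CAU-2-1 made up 10.5% of the initiator TMM in neuroblasts and 16.4% in neurons. Met-CAU-2-1 made up 16.2% of the elongator TMM in neuroblasts and 19.9% in neurons. Among all 17 nuclear anticodon groups of 2 isodecoders, the share of the isodecoder less abundant over both groups together was lower in neuroblasts in 9. The initiator and the elongator had the 2nd and the 3rd lowest differences, −5.95 and −3.76 percentage points, after Gln-UUG with −19.5. In Gln-UUG the order itself turned, since that isodecoder held 57.6% in neurons and 38.0% in neuroblasts. Ser-GCU, at −3.57, was close to the elongator. Differences in the other direction reached 8.20 points in Gly-GCC, 7.07 in Trp-CCA, 6.42 in Leu-CAA and 3.78 in Gly-UCC. Each of these was larger in size than the elongator difference, and all but Gly-UCC were larger than the initiator difference. The table does not show how far these differences exceed the spread between samples. Reads that map to several references were divided between them, so shares within an anticodon group also carry that uncertainty.

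Averaged over isodecoders, as the anticodon groups were formed in the study, the Met groups had log2 fold changes near 0. The elongator average was 219159 TMM in neuroblasts against 213927 in neurons (log2 fold change 0.03). The initiator average was 77100 against 81574 (log2 fold change −0.08). The initiator group reads 0.19 and the elongator group 0.30 relative to the nuclear median, so the direction for the initiator depends on the scaling. When both isodecoders counted alike, by the average of their log2 ratios, the value was −0.083 for the elongator, with the sign turned, and −0.36 for the initiator. The difference of −10652 for iMet-CAU-2-1 was larger in size than that of 1703 for iMet-CAU-1-X, and it set the sign of the initiator group as deposited.

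Elongator Met was more abundant than initiator Met in both groups. The elongator group was 2.84 times the initiator group in neuroblasts and 2.62 times in neurons, a log2 change of the ratio of 0.12. The main isodecoders alone gave 2.66 and 2.51. The minor ones gave 4.38 and 3.18. Initiator Met made up 1.15% of the nuclear TMM in neuroblasts and 0.986% in neurons, and elongator Met made up 3.26% and 2.59%. The summed initiator TMM was lower in neuroblasts, at 154200 against 163149, so its higher share there comes from the lower nuclear total. The summed elongator TMM was 438317 in neuroblasts against 427854 in neurons. A comparison of levels between different tRNAs also takes in how well each is hydrolysed, ligated and reverse transcribed, which was not tested.

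**Figure D2:**
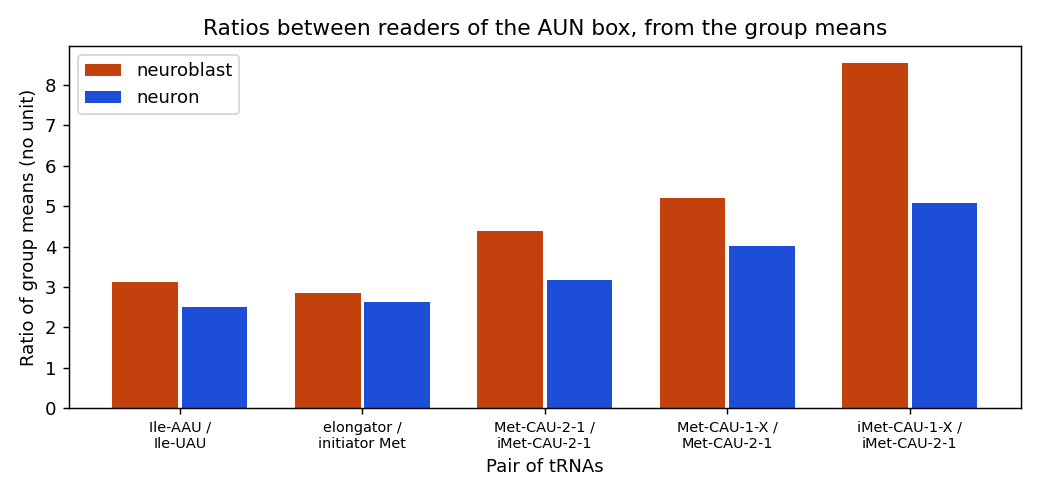
Ratios of the group means for 5 pairs of AUN readers (no unit), with neuroblasts in orange and neurons in blue and no error bars because each group has 1 mean. Every ratio shown is higher in neuroblasts, by the least for elongator over initiator Met (2.84 and 2.62) and by the most for the main over the minor initiator (8.53 and 5.08). The Met pairs share members, so these ratios are not separate observations.

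The elongator and the initiator are encoded by equal numbers of genes, 6 each. The RefSeq annotation of the Release 6 assembly lists 23 genes for the 6 isodecoders, of the 290 nuclear tRNA genes. Ile-AAU-1-X has 9 genes, Ile-UAU-1-X has 2, Met-CAU-1-X and iMet-CAU-1-X have 5 each, and Met-CAU-2-1 and iMet-CAU-2-1 have 1 each. Per gene, Met-CAU-1-X had a mean TMM of 73500 in neuroblasts and 68530 in neurons. Its single-gene partner Met-CAU-2-1 was close to this in neuroblasts, at 70819, and higher in neurons, at 85206. iMet-CAU-1-X had 27605 and 27264 per gene. The single gene of iMet-CAU-2-1 was near this in neurons, at 26827, and lower in neuroblasts, at 16175.

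Ile tRNAs turned around on this scale. Ile-UAU-1-X had 64737 per gene in neuroblasts and 62948 in neurons, above Ile-AAU-1-X with 45015 and 35101. Over all nuclear isodecoders the median per gene was 30264 in neuroblasts and 42713 in neurons. Both elongator Met isodecoders and Ile-UAU-1-X were above it in both groups. Both initiators were below it in both groups, and Ile-AAU-1-X was above it in neuroblasts and below it in neurons. The share of the genes of an isodecoder that is transcribed is not known from these data.

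**Figure D3:**
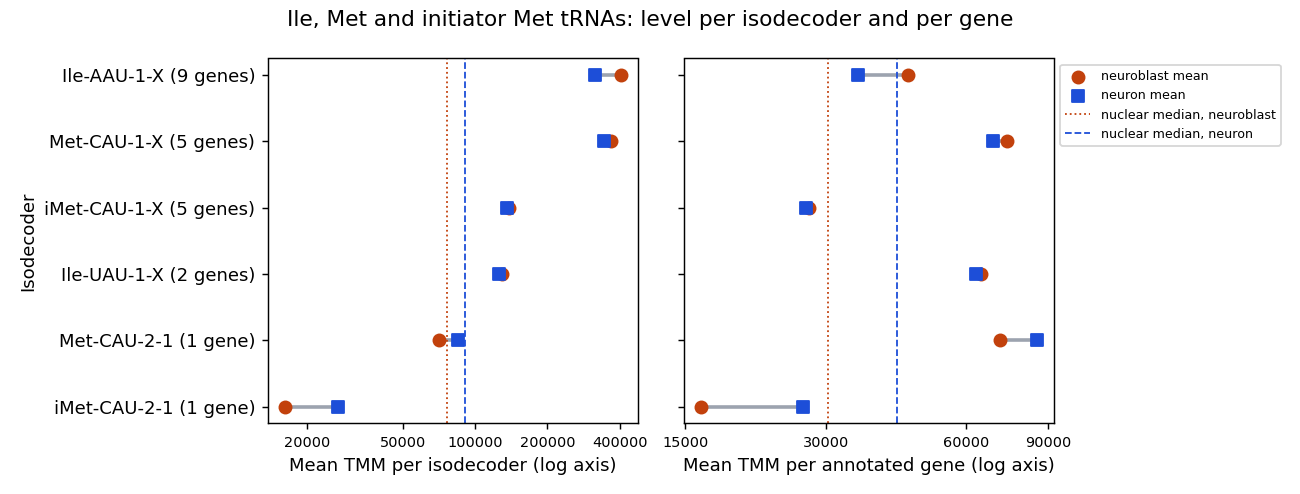
Mean TMM of the 6 AUN readers in neuroblasts (orange circles) and neurons (blue squares), per isodecoder on the left and per annotated gene on the right, on log axes, with the medians over nuclear isodecoders as vertical lines. Ile-AAU-1-X is highest per isodecoder in neuroblasts (405139), while per gene both elongator Met isodecoders lie above it.

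The genes of the 6 isodecoders are scattered to different degrees in the Release 6 assembly, and the annotation used gives spans without strand or exons. All 9 Ile-AAU genes lie on chromosome arm 2R. Both Ile-UAU genes lie on 3L, from 769503 to 769600 and from 770363 to 770462, 762 bp apart and within no other annotated gene. The Met-CAU-1-X genes are spread over 2R, 3L and 3R. The iMet-CAU-1-X genes lie on 2R and 3L, 4 of them within 1000 bp of another tRNA gene. The minor genes stand alone. iMet-CAU-2-1 occupies positions 9661225 to 9661296 of 2R, inside the gene span of the matrix metalloproteinase Mmp2, and its nearest tRNA gene is 977927 bp away. Met-CAU-2-1 occupies 3121942 to 3122014 of 3L, inside the gene span of promL, with the nearest tRNA gene 24351 bp away. In all, 14 of the 23 genes lie within the span of another gene.

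Ile-UAU can be set beside the other tRNAs whose genes are longer than the mature molecule. In flies, Ile-UAU, Leu-CAA and Tyr-GUA genes carry an intron that is spliced from the precursor. In the annotation, 16 nuclear tRNA genes span over 90 bp, and they are the 2 Ile-UAU, 4 Leu-CAA and 10 Tyr-GUA genes. The longest of the rest is 87 bp. The Ile-UAU spans are 98 and 100 bp, the Leu-CAA spans run from 121 to 127 bp and the Tyr-GUA spans from 93 to 186 bp. The log2 fold change was −1.22 for the Leu-CAA group and −1.12 for the Tyr-GUA group, and 0.04 for Ile-UAU. Relative to the nuclear median the values were −0.96, −0.85 and 0.31. Of these families, Ile-UAU alone had no lower mean in neuroblasts.

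Ile-AAU can be set beside the other anticodon groups read through inosine, a class of 8 in all. Of these, 3 were higher in neuroblasts as deposited, Ile-AAU at 0.36, Val-AAC at 0.35 and Ser-AGA at 0.28. Thr-AGU had −0.17, and Ala-AGC, Arg-ACG, Leu-AAG and Pro-AGG ran from −0.48 to −0.83. The median of the class was −0.32. Relative to the nuclear median 4 of the 8 were higher, with Ile-AAU at 0.63, Val-AAC at 0.62, Ser-AGA at 0.55 and Thr-AGU, whose direction turned, at 0.10. Ile-AAU and Val-AAC, with nearly equal changes, cannot be ranked without a spread. By the average over isodecoders, Ile-AAU was the 2nd of the class in neuroblasts and the 3rd in neurons, with Arg-ACG first in both at 782224 and 1122654. By the summed TMM it was the 3rd in neuroblasts and the 4th in neurons, with Ser-AGA at 680313 and 558834.

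**Figure D4:**
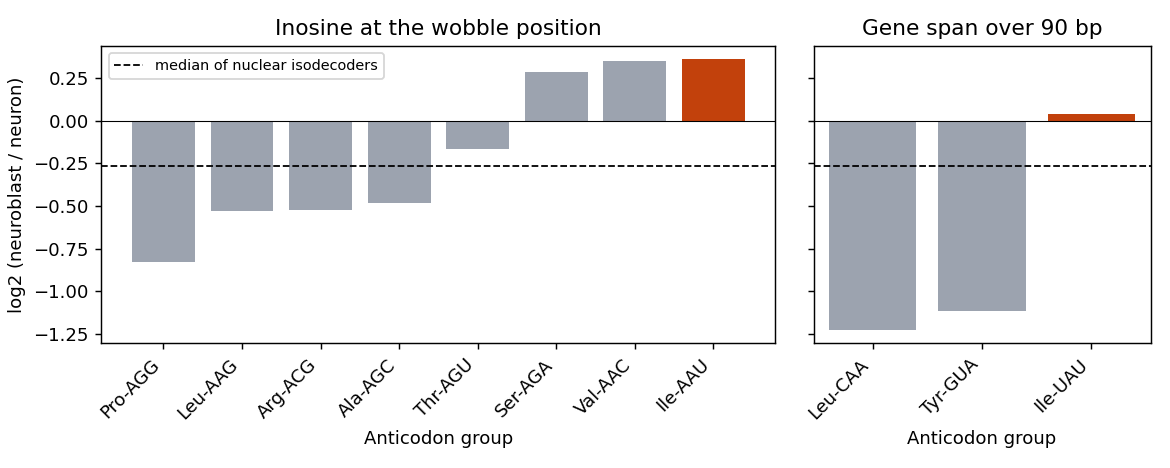
Log2 ratio of neuroblast to neuron for the 8 anticodon groups with inosine at the wobble position (left) and the 3 groups whose gene spans exceed 90 bp (right), with the Ile groups in orange and the nuclear median of −0.27 dashed. Ile-AAU (0.36) lies beside Val-AAC (0.35) at the top of its class, and Ile-UAU (0.04) lies apart from Leu-CAA (−1.22) and Tyr-GUA (−1.12).

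The mitochondrial tRNAs for the same amino acids, encoded by the mitochondrial genome, are separate molecules. Mitochondrial Met-CAU, which serves both initiation and elongation in the organelle, was at 47469 TMM in neuroblasts against 21332 in neurons (log2 fold change 1.15, or 1.42 relative to the nuclear median). Mitochondrial Ile-GAU was at 96860 against 81312 (log2 fold change 0.25, or 0.52 relative to the nuclear median), beside a median as deposited of 0.79 for the 22 mitochondrial tRNAs. The nuclear elongator and initiator Met groups, at 0.03 and −0.08, were nearer 0 than mitochondrial Met-CAU.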

How the data were processed

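tRNA was measured by hydro-tRNAseq in 3 neuroblast-biased and 3 neuron-biased samples of larval brain, grouped by the cell type in the sample records. According to the paper, the authors trimmed reads with cutadapt, aligned them with subread-align to mature tRNA sequences collapsed where identical, filtered on mapping quality, and counted them with featureCounts, sharing multi-mapped reads among references. NOISeqBio served for TMM normalization and batch correction. The authors deposited 1 mean TMM per group, a normalized signal that keeps no read depth. The table's columns of the authors' own comparison (fold change, probability and q-value) were not used.

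From the means, log2 ratios, shares, ranks, ratios between tRNAs and codon weights were calculated with Python 3.11.15, numpy 2.4.6 and pandas 2.3.3, and plotted with matplotlib 3.10.9. The calculation was tested on simulated data. Genes were matched by name to RefSeq's Release 6 annotation, the release series named in the paper's methods, and all 84 nuclear isodecoders had a match. No tRNA sequences were used here. Every Ile, Met and iMet isodecoder is named, whatever its value. Members, comparison classes and alternatives were chosen with earlier results of these data known. The alternatives were other scalings, a pseudocount of 100, a minimum mean of 5000, a fold of 1.5 times, other rules for combining isodecoders, values per gene and different wobble penalties.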

Additional observations from a re-analysis of the deposited data

How the results depend on the processing

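No paired analysis was possible because the table holds 1 mean per group, and for the same reason no replicate could be left out. Setting the nuclear median to 0 moved the log2 fold change to 0.63 for the Ile-AAU group, 0.31 for Ile-UAU, 0.30 for Met-CAU, 0.19 for iMet-CAU and 0.54 for the summed Ile pool. It left 1 of the 6 isodecoders past 0.5, Ile-AAU-1-X in place of iMet-CAU-2-1. Scaling both groups to the same nuclear sum gave 0.66 for Ile-AAU-1-X and −0.43 for iMet-CAU-2-1, and Met-CAU-2-1 lay between −0.0017 and 0.03 under the 3 scalings. Averaging the log2 fold changes of isodecoders gave −0.083 for Met-CAU, against its sign as deposited, and −0.36 for iMet-CAU. Per gene copy, Ile-AAU over Ile-UAU was 0.695 in neuroblasts and 0.558 in neurons, below 1 in both. The weight of AUC became 1 without a penalty for inosine paired with C and 0.5 with a penalty of 0.5, alike in both groups. The ratio of elongator to initiator Met, 2.84 in neuroblasts and 2.62 in neurons, became 2.66 and 2.51 with the most abundant isodecoders only. The minor isodecoders gave 4.38 and 3.18. Values per gene could not differ from the main ones, because each group has 6 genes. Per annotated base, an alternative chosen after seeing the data, the ratio was 2.80 and 2.59. Gene spans of 72 and 73 bp left it little room to move. With a fold of 1.5 times in place of the log2 size of 0.5, the count was again 1 of the 6. The share of all nuclear isodecoders past that fold is not given here. A minimum mean of 5000 could not change the count, since the lowest mean among the 6 was 16175. Read depth is unknown, so the precision of the lowest mean, that of iMet-CAU-2-1, is unknown too.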

Other observations

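Genes for Ile-AAU and Leu-CAA are interleaved within the span of ATP8A, a phospholipid flippase gene on chromosome arm 2R of the Release 6 assembly. This cluster was picked out after its values were seen. From 13430282 to 13432794, a stretch of 2513 bp holds 7 tRNA genes, of which 5 are Ile-AAU genes. The other two are Leu-CAA-2-1 and Leu-CAA-1-1, and a further Ile-AAU gene lies at 13437866 to 13437939. Leu-CAA-1-1 was at 30102 TMM in neuroblasts against 75746 in neurons (log2 fold change −1.33, or −1.06 relative to the nuclear median). Leu-CAA-2-X, which pools Leu-CAA-2-1 with other genes, was at 6292 against 9237 (log2 fold change −0.55, or −0.29 relative to that median). Ile-AAU-1-X had 0.36, or 0.63 relative to that median. Since Ile-AAU-1-X pools 9 genes with the same mature sequence, the output of those within ATP8A cannot be read from these data, and whether the neighbours change in opposite directions was not tested.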
